A study of Mus musculus with 12 samples.

Results

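Ovaries of mice with stage II tumors were compared with ovaries of mice with stage I tumors, within 1 genotype, to describe how expression differed between the stages of ovarian neoplasia. The members are all genes with a probe set that the platform annotation pairs with a single gene symbol, 10949 genes in all, and each gene was read by the probe set that was brightest on average over the 12 arrays. The comparison used 6 of the 12 arrays of the series, 3 of stage I and 3 of stage II, and the other 6 came from control ovaries and are given beside them. Both tumor groups were Pgrcre/+PgrBLsL/+ mice, which carry a PgrBLsL allele besides Pgrcre, and the controls were Pgrcre/+ mice labelled as having no tumor. All mice were females of 23 weeks, taken at diestrus, the quiet phase of the estrous cycle, and 1 array was run on total RNA of the ovary for each. The labels number the arrays as bioreplicates.

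The ovary is a mixed organ in which oocytes grow inside follicles, granulosa cells surround the oocyte, and theca cells outside the follicle wall make androgens. Progesterone acts through the receptor encoded by Pgr, a hormone-dependent transcription factor with a long and a short isoform that granulosa cells normally make briefly around ovulation. The name of the Pgrcre allele places Cre at the Pgr locus, and controls carry it too, so no group had an unmodified Pgr locus. Every ovary with PgrBLsL had a tumor stage and no control did, so effects of the allele and of the tumor cannot be told apart against controls. Between the stages the genotype is the same, and what differs by label is the stage. The criteria that set the stage were not given in the sources used here.

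Of 10949 genes tested, limma called 1370 at an adjusted p under 0.05, which is 12.5% of them. Of these, 716 were higher in stage II (6.54%) and 654 were lower (5.97%), while the median difference over all genes was log2 -0.008. The rises were larger than the falls. At least 2-fold differences were found in 184 called genes that rose and 22 that fell, and at least 4-fold differences in 56 and 2. Quantile normalization turned the split to 684 higher and 936 lower. The calls nearest to the threshold were Nfix on the inside (log2 -0.39, adjusted p = 0.0496) and Cry2 on the outside (-0.28, adjusted p = 0.05).

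**Figure D1:**
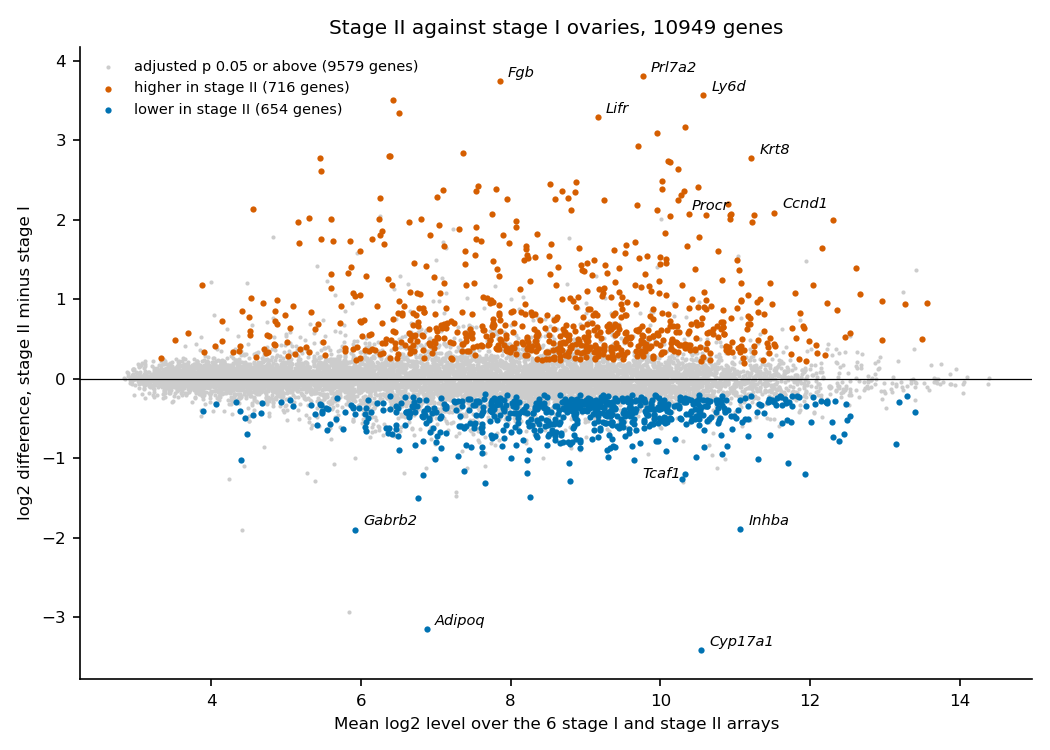
Each point is 1 of the 10949 genes, with the mean log2 level over the 6 tumor arrays on the horizontal axis and the log2 difference of stage II minus stage I on the vertical axis. Coloured points passed an adjusted p of 0.05 (716 higher, 654 lower), and the upper part of the plot reaches beyond 2 far more often (56 called genes at 4-fold or more) than the lower (2 called genes).

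The 6 tumor arrays were not evenly spaced. On the main axis of variation over all genes the controls lay between -17.6 and -15.1. Replicates 1, 2 and 3 of stage I lay at 9.9, -4.6 and -6.5, and those of stage II at 30.2, 27.6 and 42.2. Stage I replicate 1 thus lay nearest to stage II, and stage II replicate 3 lay farthest out. Stage I replicate 1 had the highest stage I value in 486 of the 716 genes that rose (67.9%, against 36.8% of all genes). Stage II replicate 3 had the highest stage II value in 526 of them (73.5%, against 44.2%) and the lowest in 560 of the 654 that fell. Leaving out each array in turn gave between 605 and 1610 called genes. It was 633 without stage II replicate 3, 632 without stage I replicate 2 and 605 without stage I replicate 3, and 711 (515 higher and 196 lower) with stage II replicate 3 and stage I replicate 1 left out together, a choice made after the data were seen. In all these fits every one of the 1370 genes kept its direction.

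Pgr was higher in stage II. Per array, in the order of replicates 1, 2 and 3, it lay at 9.11, 9.05 and 9.28 in stage I and 9.78, 9.96 and 10.09 in stage II, against 3.74, 4.19 and 4.60 in controls (for controls always the lowest, median and highest of the 6). No array of stage II overlapped stage I, and both stages lay far above every control. PgrBLsL is by its name an allele of Pgr, and both stages carried it while no control did. Which allele the Pgr signal came from was not tested. The difference between the stages was 1.74-fold (log2 0.80 ± 0.17 SE, adjusted p = 0.0116), which no longer passed with stage II replicate 3 left out (adjusted p = 0.0506).

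Among 20 measured targets of the progesterone receptor, known from other reproductive tissues, 5 rose and 2 fell, and the falls became 1 without control replicate 1 or 2 or any one of the 6 tumor arrays. Their median difference was log2 0.21, beside -0.008 over all genes. Lrp2, an endocytic receptor that takes up steroid carrier proteins, lay at 5.06, 3.68 and 4.14 in stage I and 6.25, 6.08 and 6.61 in stage II, against 3.63, 3.82 and 4.19 in controls. It rose 4.06-fold (log2 2.02 ± 0.28 SE, adjusted p = 0.00106). Hand2, a transcription factor that progesterone induces in uterine stroma, lay at 5.26, 4.39 and 4.63 in stage I and 6.49, 6.51 and 6.47 in stage II, against 4.05, 4.22 and 4.39 in controls, and rose 3.32-fold (log2 1.73 ± 0.17 SE, adjusted p = 0.00013). In both genes stage I replicates 2 and 3 were near the controls, and all 3 stage II arrays stood clear of stage I. Prkg2, a cyclic GMP-dependent kinase known as a receptor target in granulosa cells, rose 2.65-fold (log2 1.41 ± 0.18 SE, adjusted p = 0.000644). The co-chaperones of steroid receptors went in opposite directions. Fkbp5, which lowers receptor sensitivity and is itself induced by the receptor, rose 1.43-fold (log2 0.52 ± 0.11 SE, adjusted p = 0.0141). Fkbp4, which raises receptor activity, lay at 10.25, 10.37 and 10.49 in stage I and 9.72, 9.71 and 9.30 in stage II, against 9.71, 10.20 and 10.26 in controls, and fell 1.73-fold (log2 -0.79 ± 0.15 SE, adjusted p = 0.0063). The lowest control of Fkbp4, replicate 1, stood apart from the other controls and at the level of stage II.

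The largest rise was in Prl7a2, and genes of surface and secreted proteins and of enzymes were both among the next largest. Prl7a2, a prolactin-family hormone of the placenta, lay at 9.34, 7.22 and 7.01 in stage I and 11.96, 11.44 and 11.61 in stage II, against 3.00, 3.28 and 3.50 in controls. It was 14.0-fold (log2 3.81 ± 0.45 SE, adjusted p = 0.000415) higher in stage II, and the stages did not overlap. Of the 10 measured members of the prolactin family it was the one called. Ly6d, a lipid-anchored surface antigen of epithelia, lay at 10.00, 8.38 and 7.97 in stage I and 12.25, 12.34 and 12.48 in stage II, against 5.35, 5.54 and 6.16 in controls, and rose 11.9-fold (log2 3.57 ± 0.40 SE, adjusted p = 0.000277). Its relative Lynx1, a modulator of nicotinic acetylcholine receptors, rose 4.79-fold (log2 2.26 ± 0.23 SE, adjusted p = 0.000155), and these were the 2 called among 11 Ly6 family genes. Defb8, a beta-defensin, which is a small antimicrobial peptide, lay at 10.46, 7.72 and 8.05 in stage I and 11.23, 12.42 and 12.08 in stage II, against 4.18, 4.34 and 4.68 in controls, and rose 8.97-fold (log2 3.17 ± 0.55 SE, adjusted p = 0.00419). Stage I replicate 1 was the highest of its stage in each of these 4 genes.

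**Figure D2:**
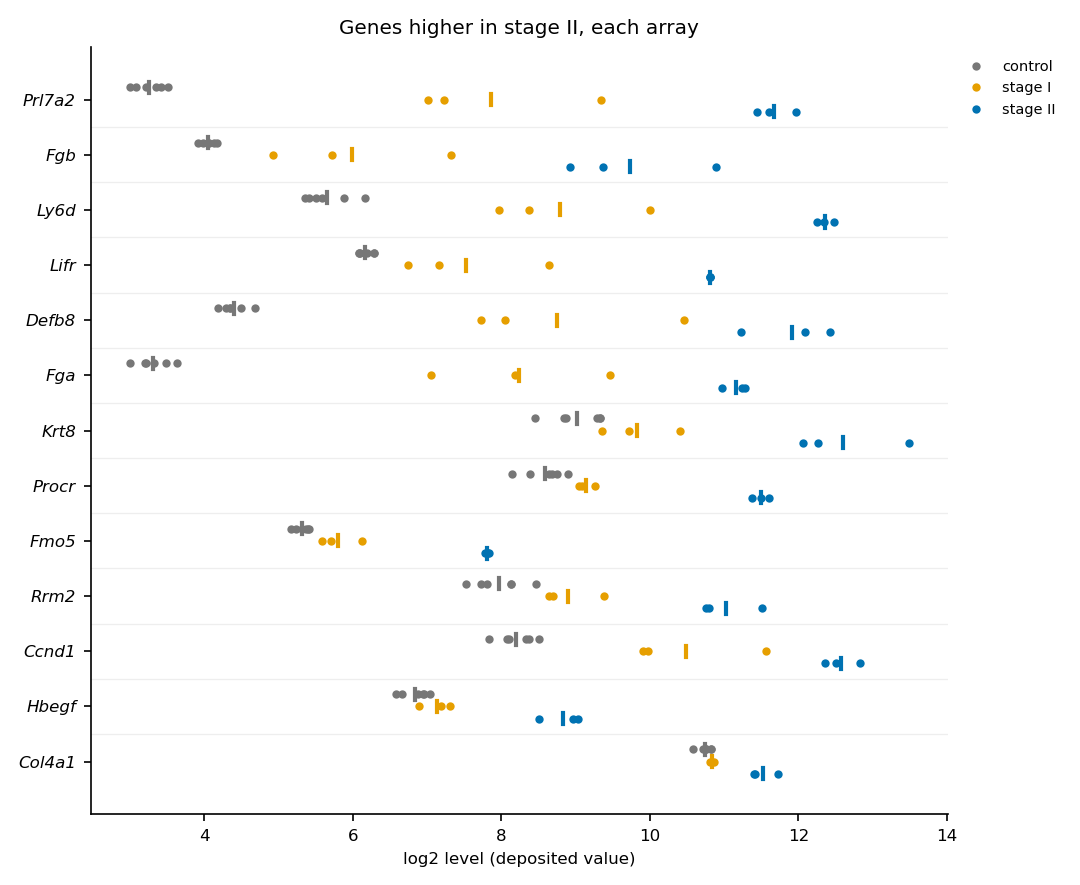
The log2 level of 13 genes that rose is shown on each array, with a row per gene, a point per array and a short vertical line at each group's mean (6 controls, 3 arrays of stage I, 3 of stage II). Stage II lies to the right of stage I in every row, and in Prl7a2 (7.01 to 9.34 in stage I), Ly6d and Defb8 stage I itself lies to the right of all controls.

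The 3 fibrinogen chains, which assemble into the clot protein that liver normally secretes, rose together. Fgb, the beta chain, lay at 7.32, 5.71 and 4.92 in stage I and 8.93, 9.37 and 10.88 in stage II, against 3.91, 4.05 and 4.17 in controls, and rose 13.4-fold (log2 3.74 ± 0.53 SE, adjusted p = 0.00132). Fgg, the gamma chain, lay at 5.64, 4.54 and 4.33 in stage I and 6.95, 8.34 and 9.24 in stage II, against 3.64, 3.90 and 4.10 in controls, and rose 10.1-fold (log2 3.34 ± 0.46 SE, adjusted p = 0.00108). Fga, the alpha chain, lay at 9.47, 8.18 and 7.05 in stage I and 10.97, 11.24 and 11.27 in stage II, against 2.99, 3.26 and 3.63 in controls, and rose 7.63-fold (log2 2.93 ± 0.43 SE, adjusted p = 0.00152). In all 3 genes every stage I array lay above every control and below every stage II array. The 3 genes are neighbours on chromosome 3, and the 300 bases around their starts (250 before to 50 after, from RefSeq, build GRCm38.p6) are shown because these neighbours moved together. Capitals mark the 1 match of a searched motif in Fgb (TGANTCA, the AP-1 type) and the 1 in Fgg (TTTNGCGC, the E2F type, on the other strand).
Fga, chr3:83025903-83026202, plus strand: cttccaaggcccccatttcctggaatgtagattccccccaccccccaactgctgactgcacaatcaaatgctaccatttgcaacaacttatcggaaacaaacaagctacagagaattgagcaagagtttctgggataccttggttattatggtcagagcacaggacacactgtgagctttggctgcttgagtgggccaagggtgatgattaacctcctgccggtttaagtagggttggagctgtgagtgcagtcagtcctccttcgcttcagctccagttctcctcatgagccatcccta
Fgb, chr3:83049814-83050113, minus strand: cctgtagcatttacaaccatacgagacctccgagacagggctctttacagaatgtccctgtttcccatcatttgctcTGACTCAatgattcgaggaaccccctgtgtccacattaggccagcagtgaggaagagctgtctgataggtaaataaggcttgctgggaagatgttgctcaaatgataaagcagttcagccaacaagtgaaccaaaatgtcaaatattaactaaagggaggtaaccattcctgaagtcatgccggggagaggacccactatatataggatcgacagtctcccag
Fgg, chr3:83007474-83007773, plus strand: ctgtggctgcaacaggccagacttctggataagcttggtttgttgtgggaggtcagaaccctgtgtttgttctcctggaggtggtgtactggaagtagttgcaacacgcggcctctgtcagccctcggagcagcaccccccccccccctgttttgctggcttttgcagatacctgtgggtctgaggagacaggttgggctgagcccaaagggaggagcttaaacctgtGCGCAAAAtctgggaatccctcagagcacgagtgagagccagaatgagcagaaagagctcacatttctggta
None of the 3 windows held TATAAA or CCAAT, nor the palindromic element that progesterone and glucocorticoid receptors share, on either strand. Among the 8765 promoters matched of 10949 genes, TATAAA was found in 9.98%, CCAAT in 38.35%, TGANTCA in 6.35%, TTTNGCGC in 2.08% and the receptor element in 0.03%. Among the promoters of genes that rose (563 matched) the shares were 7.1%, 39.96%, 5.68%, 2.66% and 0.0%, and among those of genes that fell (536 matched) 8.4%, 37.13%, 3.54%, 1.31% and 0.0%. A match is a run of letters and not a measured site.

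Some other plasma and defence proteins rose as well. Of 23 plasma proteins of liver 6 rose and 1 fell, and the count of rises stayed at 6 with each array left out in turn, with a median over the list of log2 0.14. The 6 include fibrinogen, described above. The 1 fall ended without stage I replicate 3 or stage II replicate 3, and 2 genes fell without stage I replicate 1 or stage II replicate 1. Apoa1, the main protein of high-density lipoprotein, lay at 9.11, 8.73 and 8.91 in stage I and 10.76, 11.21 and 12.70 in stage II, against 7.95, 8.33 and 8.94 in controls. It rose 6.23-fold (log2 2.64 ± 0.39 SE, adjusted p = 0.00184), and its stage I arrays overlapped the controls. Apoh, which binds phospholipids in plasma, rose 5.13-fold (log2 2.36 ± 0.42 SE, adjusted p = 0.00511), and Serpina3n, a serine protease inhibitor of the acute phase, rose 2.93-fold (log2 1.55 ± 0.26 SE, adjusted p = 0.00375). Of 15 innate defence genes 4 rose and 0 fell, with a median of 0.10. Cp, the copper-carrying ferroxidase ceruloplasmin, rose 4.16-fold (log2 2.06 ± 0.33 SE, adjusted p = 0.00284), and Cd14, a co-receptor for bacterial lipopolysaccharide, rose 3.12-fold (log2 1.64 ± 0.24 SE, adjusted p = 0.00169). Lcn2, a siderophore-binding protein chosen here after its values were seen, lay at 13.70, 12.34 and 12.17 in stage I and 14.14, 14.08 and 14.10 in stage II, against 5.06, 6.03 and 7.12 in controls. Its difference did not pass (2.58-fold, log2 1.37 ± 0.55 SE, adjusted p = 0.126), and stage II lay close to the highest value in the table, 14.4.

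Genes of epithelial structure, mucins and their sugar chains were among the rises. Krt8, a keratin of simple epithelia, lay at 10.41, 9.72 and 9.36 in stage I and 12.06, 12.26 and 13.49 in stage II, against 8.45, 9.08 and 9.33 in controls, and rose 6.85-fold (log2 2.78 ± 0.37 SE, adjusted p = 0.000843). Of 31 measured keratins it was the one that rose. Muc13, a transmembrane mucin, lay at 6.62, 6.51 and 6.63 in stage I and 8.25, 7.91 and 9.33 in stage II, against 5.94, 6.13 and 6.36 in controls, and rose 3.75-fold (log2 1.91 ± 0.26 SE, adjusted p = 0.00112). Galnt1, an enzyme that starts mucin-type sugar chains, rose 1.88-fold (log2 0.91 ± 0.09 SE, adjusted p = 0.00012), and Galnt3, of the same enzyme family, rose 5.21-fold (log2 2.38 ± 0.28 SE, adjusted p = 0.000348), a value that was log2 1.24 with the mean of its probe sets. Of 37 mucin and glycoprotein enzyme genes 8 rose and 2 fell, with a median of 0.07. The 8 became 5 without stage I replicate 3 or stage II replicate 3, and the 2 that fell became 0 without stage I replicate 2 or 3 and 1 without stage I replicate 1 or stage II replicate 3. Tspan8, a tetraspanin of epithelia, rose 3.98-fold (log2 1.99 ± 0.39 SE, adjusted p = 0.00852), and Cldn11, a tight junction claudin known from Sertoli cells and myelin, rose 5.14-fold (log2 2.36 ± 0.29 SE, adjusted p = 0.000541), in a gene whose control replicate 4 (5.58) stood apart from the other controls. Of 22 tetraspanins 3 rose and 3 fell, and without stage I replicate 3 both counts were 1. Of 37 claudin, tight junction and desmosome genes 4 rose and 0 fell, and 1 rose without stage II replicate 3. The share called in that list, 10.8%, is near the 12.5% of all genes. At an unadjusted p under 0.05 limma gave 4 of its members as lower. St14, the membrane protease matriptase of epithelia, rose 1.97-fold (log2 0.98 ± 0.15 SE, adjusted p = 0.00237). Of 18 S100 and annexin genes, which bind calcium, 6 rose and 0 fell, with a median of 0.17. Anxa4, a membrane-binding annexin of epithelia, rose 2.30-fold (log2 1.20 ± 0.18 SE, adjusted p = 0.00186), with control replicate 4 (10.21) apart from the other controls, and S100a10, the partner of annexin A2, rose 1.93-fold (log2 0.95 ± 0.14 SE, adjusted p = 0.00197). The 6 became 2 without stage I replicate 1 and 3 without stage I replicate 3 or stage II replicate 1 or 3. The 11 markers of the ovarian surface and simple epithelium had a median of -0.04, with 3 called higher and 0 lower, and 1 higher without stage I replicate 3 or stage II replicate 3.

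Some genes of LIF, EGF and FGF signalling rose. Lifr, the receptor of leukemia inhibitory factor, lay at 8.65, 6.75 and 7.16 in stage I and 10.80, 10.81 and 10.81 in stage II, against 6.08, 6.14 and 6.29 in controls. It rose 9.79-fold (log2 3.29 ± 0.34 SE, adjusted p = 0.000163), and the 3 stage II arrays were nearly equal. Lif, the ligand, lay at 5.40, 5.38 and 5.26 in stage I and 6.17, 6.28 and 6.82 in stage II, against 4.87, 5.36 and 5.51 in controls, and rose 2.11-fold (log2 1.07 ± 0.17 SE, adjusted p = 0.00289). Il6st, the gp130 chain that pairs with the receptor, rose 1.53-fold (log2 0.62 ± 0.11 SE, adjusted p = 0.0047). These 3 were the rises among 44 chemokines, interleukins and receptors, of which 1 was called lower, a list with a median of 0.02. The share called in this list, 9.1%, is below the 12.5% of all genes. The 1 lower call ended without control replicate 1 or 2 or any one of the 6 tumor arrays.

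Hbegf, a ligand of the EGF receptor that is released from the cell surface, lay at 7.31, 7.19 and 6.88 in stage I and 8.97, 9.03 and 8.51 in stage II, against 6.57, 6.90 and 7.03 in controls. It rose 3.27-fold (log2 1.71 ± 0.16 SE, adjusted p = 0.00012). Tgfa, another ligand of that receptor, rose 2.11-fold (log2 1.08 ± 0.23 SE, adjusted p = 0.0115). Of 12 EGF family genes and receptors these 2 rose and 0 fell, with a median of 0.03. Among 16 FGF pathway genes 3 rose and 1 fell, with a median of -0.08, and the 3 are receptors and a target. Fgfr1, which is widely expressed in mesenchyme, rose 1.77-fold (log2 0.82 ± 0.13 SE, adjusted p = 0.00284), Fgfr3 rose 2.02-fold (log2 1.01 ± 0.16 SE, adjusted p = 0.00269), and Etv5, a transcription factor that FGF signalling induces, rose 1.99-fold (log2 0.99 ± 0.16 SE, adjusted p = 0.00269). The 1 fall ended without any stage I array and without stage II replicate 2 or 3. The immediate early gene Fos, a component of the AP-1 transcription factor, lay at 10.05, 9.98 and 9.28 in stage I and 11.04, 11.03 and 11.39 in stage II, against 9.04, 9.86 and 10.18 in controls, and rose 2.61-fold (log2 1.38 ± 0.29 SE, adjusted p = 0.0113), the 1 called of 17 immediate early genes.

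Genes that act before and during DNA synthesis were among the rises. Ccnd1, which encodes cyclin D1 of the G1 phase, lay at 11.56, 9.91 and 9.97 in stage I and 12.36, 12.51 and 12.84 in stage II, against 7.83, 8.22 and 8.50 in controls. It rose 4.25-fold (log2 2.09 ± 0.35 SE, adjusted p = 0.00352), with stage I replicate 1 between its own stage and stage II. Ccne1, the cyclin that acts at entry into S phase, rose 1.41-fold (log2 0.50 ± 0.09 SE, adjusted p = 0.00612). Rrm2, a subunit of ribonucleotide reductase, which makes deoxynucleotides, lay at 9.38, 8.63 and 8.69 in stage I and 10.75, 10.79 and 11.51 in stage II, against 7.52, 7.96 and 8.47 in controls, and rose 4.34-fold (log2 2.12 ± 0.27 SE, adjusted p = 0.000725). Lig1, the ligase that joins Okazaki fragments, rose 2.74-fold (log2 1.45 ± 0.16 SE, adjusted p = 0.000255), with control replicate 2 (9.30) apart from the other controls. Tk1, thymidine kinase, rose 1.90-fold (log2 0.92 ± 0.18 SE, adjusted p = 0.0075), and Brca1, a repair protein, rose 1.76-fold (log2 0.82 ± 0.14 SE, adjusted p = 0.00389). These 4 were the called members of 24 replication and repair genes, of which 0 fell and 21 lay above 0, with a median of 0.29. With each array left out in turn, 4 to 6 of them were called higher. Of 18 mitosis genes 2 were called higher and 0 lower, with a median of 0.18, and this median lay between 0.061 and 0.263 when single arrays were left out. Nek2, a centrosome kinase, rose 1.77-fold (log2 0.82 ± 0.16 SE, adjusted p = 0.0085). The other was Nusap1, a spindle protein, at 1.44-fold (log2 0.52 ± 0.16 SE, adjusted p = 0.0476). The call of Nusap1 ended without control replicate 1, 2, 3, 4 or 6, without stage I replicate 2 or 3, without stage II replicate 1 or 3, and after quantile normalization, centring or averaging of its probe sets. Without stage II replicate 2 the count of mitosis genes called higher was 4. Mki67, the Ki-67 proliferation antigen, chosen here after its values were seen, differed by 1.12-fold (log2 0.16 ± 0.13 SE, adjusted p = 0.476) and did not pass.

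Some targets of p53 and regulators of cell death rose. Of 13 measured p53 genes 5 rose and 0 fell, with a median of 0.31, and 4 or 5 were called higher with each array left out in turn. Pmaip1, whose product Noxa promotes cell death, lay at 10.10, 8.42 and 7.97 in stage I and 11.26, 11.39 and 10.99 in stage II, against 4.41, 4.76 and 5.72 in controls, and rose 5.23-fold (log2 2.39 ± 0.46 SE, adjusted p = 0.00784). Mdm2, the ubiquitin ligase that p53 induces against itself, lay at 10.08, 9.84 and 9.84 in stage I and 10.78, 10.59 and 11.39 in stage II, against 9.58, 9.66 and 9.67 in controls, and rose 2.00-fold (log2 1.00 ± 0.16 SE, adjusted p = 0.0025). Ccng1, cyclin G1, rose 1.70-fold (log2 0.77 ± 0.07 SE, adjusted p = 0.00012), and Ei24, a membrane protein induced by p53, rose 1.31-fold (log2 0.39 ± 0.06 SE, adjusted p = 0.00258). Of 14 genes of the Bcl2 family 5 rose and 1 fell, with a median of 0.17, and the 5 became 3 without stage I replicate 2 or stage II replicate 3. The 5 were Pmaip1, Bcl2l11, Bcl2l1, Bnip3 and Bak1, and Bcl2l1 was the 1 whose main product blocks death. Bcl2l1 rose 1.59-fold (log2 0.67 ± 0.09 SE, adjusted p = 0.000845), and Bnip3, which drives removal of mitochondria and responds to low oxygen, rose 1.42-fold (log2 0.51 ± 0.10 SE, adjusted p = 0.00686). Bok, a pro-apoptotic member known from ovary, fell 1.47-fold (log2 -0.56 ± 0.11 SE, adjusted p = 0.00919).

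Enzymes of detoxification and metabolism, and the receptor gene Procr, supplied some of the clearest rises. Fmo5, a flavin monooxygenase, lay at 6.13, 5.58 and 5.71 in stage I and 7.77, 7.84 and 7.81 in stage II, against 5.17, 5.34 and 5.41 in controls. It rose 4.01-fold (log2 2.00 ± 0.12 SE, adjusted p = 9.44e-06), and the 3 stage II arrays were nearly equal while stage I spread more widely. Procr, the endothelial protein C receptor, lay at 9.09, 9.26 and 9.05 in stage I and 11.38, 11.60 and 11.49 in stage II, against 8.14, 8.66 and 8.90 in controls, and rose 5.12-fold (log2 2.36 ± 0.16 SE, adjusted p = 2.37e-05). Gldc, the glycine-cleaving enzyme of mitochondria, rose 7.14-fold (log2 2.83 ± 0.36 SE, adjusted p = 0.000679), and Ldhd, the mitochondrial D-lactate dehydrogenase, rose 6.65-fold (log2 2.73 ± 0.33 SE, adjusted p = 0.000441). Ugt2b34, which couples glucuronic acid to steroids and drugs, lay at 5.71, 4.09 and 4.21 in stage I and 7.13, 7.31 and 10.11 in stage II, against 3.57, 3.58 and 3.92 in controls, and rose 11.4-fold (log2 3.51 ± 0.64 SE, adjusted p = 0.00541). Stage II replicate 3 was far above the other 2 stage II arrays in this gene, and the stages did not overlap. Sult1a1, a sulfotransferase, rose 3.08-fold (log2 1.62 ± 0.24 SE, adjusted p = 0.00171). Of 70 aldehyde, alcohol and conjugation enzymes 8 rose and 3 fell, with a median of 0.01 and 5 higher without stage I replicate 3. The 3 falls became 0 without stage I replicate 2 or stage II replicate 3 and 5 without control replicate 1 or stage II replicate 2. Of 18 antioxidant and glutathione genes 5 rose and 1 fell, with a median of 0.27, among them Gsta3, a glutathione transferase that also acts in steroid synthesis (5.61-fold, log2 2.49 ± 0.46 SE, adjusted p = 0.00566), and Gclm, a subunit of the enzyme that starts glutathione synthesis (1.74-fold, log2 0.80 ± 0.15 SE, adjusted p = 0.00561). The 5 became 3 without stage I replicate 2 or 3, and the 1 fall ended without any stage I array or stage II replicate 3.

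Among 214 measured solute carriers 20 rose and 13 fell, with a median of 0.01. The share called, 15.4%, is near the 12.5% of all genes. Slc16a6, a transporter of monocarboxylates, led them. It lay at 9.54, 7.74 and 7.94 in stage I and 11.43, 11.25 and 11.81 in stage II, against 5.94, 6.43 and 6.87 in controls, and rose 8.52-fold (log2 3.09 ± 0.39 SE, adjusted p = 0.000589). Slco2a1, the prostaglandin transporter, rose 4.60-fold (log2 2.20 ± 0.22 SE, adjusted p = 0.000159) and was the 1 called of 14 prostaglandin genes. Slc39a14, an importer of zinc and iron, rose 3.30-fold (log2 1.72 ± 0.21 SE, adjusted p = 0.000541). Without stage I replicate 3 the count of rises was 13, and the falls were 4 without stage I replicate 2, 6 without stage I replicate 3 or stage II replicate 1 and 5 without stage II replicate 3. Ndrg1, which responds to low oxygen, rose 3.93-fold (log2 1.98 ± 0.35 SE, adjusted p = 0.00464), and the glycolysis and hypoxia list held 4 rises and 0 falls among 24, with a median of 0.07. In the heat shock list of 15 genes, Hspb1, the small heat shock protein HSP27, rose 3.13-fold (log2 1.64 ± 0.19 SE, adjusted p = 0.000415), and Hspa1b, an inducible HSP70, fell 2.40-fold (log2 -1.26 ± 0.27 SE, adjusted p = 0.0115). Hspa1b lay at 10.20, 10.90 and 11.68 in stage I and 9.65, 9.61 and 9.74 in stage II, against 9.50, 9.73 and 9.97 in controls, so the stage I arrays differed among themselves and stage II overlapped the controls. Without stage I replicate 1 the heat shock list held 5 lower calls in place of 1.

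Some genes of the extracellular matrix rose and others fell. Col4a1, a chain of the type IV collagen of basement membranes, lay at 10.80, 10.86 and 10.84 in stage I and 11.42, 11.40 and 11.73 in stage II, against 10.58, 10.76 and 10.82 in controls. It rose 1.61-fold (log2 0.68 ± 0.09 SE, adjusted p = 0.000845). Col4a2, its partner chain, lay at 10.81, 10.87 and 10.87 in stage I and 11.32, 11.40 and 11.70 in stage II, against 10.83, 10.92 and 10.98 in controls, and rose 1.54-fold (log2 0.63 ± 0.09 SE, adjusted p = 0.00129). In both, stage I overlapped the controls and every stage II array lay above all other arrays. The genes lie head to head on chromosome 8 and share a start region. Their promoter windows (RefSeq, build GRCm38.p6) overlap by 78 bases at chr8:11312777-11312854, shown in capitals, so that each shared stretch is the reverse complement of the other.
Col4a1, chr8:11312777-11313076, minus strand: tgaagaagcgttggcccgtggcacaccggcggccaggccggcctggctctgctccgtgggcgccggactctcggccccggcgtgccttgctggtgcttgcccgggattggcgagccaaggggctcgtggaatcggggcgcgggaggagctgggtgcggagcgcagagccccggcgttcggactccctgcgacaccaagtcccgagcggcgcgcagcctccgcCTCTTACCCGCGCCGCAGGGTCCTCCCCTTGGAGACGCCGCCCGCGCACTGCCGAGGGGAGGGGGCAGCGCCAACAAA
Col4a2, chr8:11312555-11312854, plus strand: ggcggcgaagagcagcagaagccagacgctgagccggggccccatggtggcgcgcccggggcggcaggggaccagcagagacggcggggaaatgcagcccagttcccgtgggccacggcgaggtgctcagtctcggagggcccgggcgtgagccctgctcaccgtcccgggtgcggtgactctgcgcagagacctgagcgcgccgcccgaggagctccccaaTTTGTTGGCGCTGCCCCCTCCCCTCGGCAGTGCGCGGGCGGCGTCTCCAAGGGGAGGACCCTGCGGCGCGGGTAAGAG
Laminins and nidogen of the same membranes rose as well. Lamb2 lay at 9.38, 8.69 and 8.64 in stage I and 9.96, 10.05 and 9.97 in stage II, against 8.38, 8.48 and 8.64 in controls, and rose 2.13-fold (log2 1.09 ± 0.15 SE, adjusted p = 0.0013), Lama5 rose 2.90-fold (log2 1.54 ± 0.31 SE, adjusted p = 0.0088), Lamc1 rose 1.49-fold (log2 0.58 ± 0.12 SE, adjusted p = 0.00864), and Nid1, which links laminin to type IV collagen, rose 1.36-fold (log2 0.45 ± 0.08 SE, adjusted p = 0.00437). Of 16 basement membrane genes 5 rose and 2 fell, with a median of 0.19. The 2 falls became 0 or 1 without any single array except stage II replicate 1.

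Several fibrillar and type VI collagens fell. Col6a3 lay at 11.08, 11.51 and 11.30 in stage I and 10.34, 10.66 and 10.04 in stage II, against 11.19, 11.48 and 11.73 in controls, and fell 1.93-fold (log2 -0.95 ± 0.17 SE, adjusted p = 0.00434). Col3a1, the type III collagen of loose connective tissue, lay at 12.69, 12.80 and 12.77 in stage I and 12.29, 12.34 and 12.09 in stage II, against 12.61, 12.70 and 12.80 in controls, and fell 1.43-fold (log2 -0.52 ± 0.08 SE, adjusted p = 0.002). Col5a2 fell 1.47-fold (log2 -0.55 ± 0.08 SE, adjusted p = 0.00147), and Col6a2 fell 1.47-fold (log2 -0.56 ± 0.10 SE, adjusted p = 0.00612). In each of these 4 genes stage II lay below all controls as well as below stage I. Of 34 collagens 4 rose and 10 fell, with a median of -0.04. The rises were 2 without stage I replicate 2 or stage II replicate 1, and the falls numbered 7 to 10 when single arrays were left out. Plod2, a lysyl hydroxylase that prepares collagen for cross-linking, fell 1.97-fold (log2 -0.98 ± 0.18 SE, adjusted p = 0.00612). Of 14 fibroblast and matrix markers 2 rose and 7 fell, with a median of -0.48, and the 7 became 4 without stage I replicate 2 or 3 or stage II replicate 3. The rises were Fn1, fibronectin (2.62-fold, log2 1.39 ± 0.28 SE, adjusted p = 0.00864), and Mmp2, a gelatinase that cleaves type IV collagen (1.50-fold, log2 0.58 ± 0.12 SE, adjusted p = 0.00907). Some other matrix-degrading and protecting genes rose too, in lists of mixed direction. Of 104 matrix and secreted proteases 7 rose and 6 fell, 12.5% as over all genes, with a median of 0.01. Of 54 serpins and other protease inhibitors 8 rose and 3 fell, with a median of -0.02. With single arrays left out the falls numbered 0 to 6 and 0 to 4, and both medians changed sign. Mmp19, a metalloproteinase, lay at 7.94, 6.54 and 7.41 in stage I and 9.55, 9.53 and 10.15 in stage II, against 6.07, 6.51 and 6.72 in controls, and rose 5.46-fold (log2 2.45 ± 0.29 SE, adjusted p = 0.000417), and Timp2, an inhibitor of metalloproteinases, rose 4.04-fold (log2 2.01 ± 0.31 SE, adjusted p = 0.00237).

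In the oocyte, granulosa and theca lists some markers fell and 0 rose. In whole ovaries, fewer cells of a type and less RNA per cell cannot be told apart. Of 10 oocyte markers 9 fell and 0 rose, with a median of -0.69, beside 5.97% of all genes called lower. Zp3, a zona pellucida protein and the sperm receptor, lay at 9.41, 9.05 and 9.29 in stage I and 8.61, 8.75 and 8.10 in stage II, against 9.07, 9.27 and 9.59 in controls, and fell 1.70-fold (log2 -0.76 ± 0.17 SE, adjusted p = 0.0129). Nlrp5, a maternal-effect gene, lay at 8.74, 8.59 and 8.84 in stage I and 8.09, 8.30 and 7.57 in stage II, against 8.77, 8.90 and 8.95 in controls, and fell 1.67-fold (log2 -0.74 ± 0.15 SE, adjusted p = 0.00816). These 2 calls held with every single array left out. The count of 9 fell to 2 without stage I replicate 1 or 3, to 4 without stage I replicate 2 or stage II replicate 1 and to 3 without stage II replicate 3, while the median stayed between -0.83 and -0.51.

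Of 9 granulosa cell markers 5 fell and 0 rose, with a median of -0.79. Inhba, a subunit of activin and inhibin, lay at 12.22, 12.02 and 11.80 in stage I and 10.42, 11.29 and 8.67 in stage II, against 11.25, 11.98 and 12.47 in controls, and fell 3.71-fold (log2 -1.89 ± 0.52 SE, adjusted p = 0.0337). Stage II replicate 3 was lowest by far, and replicate 2 lay inside the control range. Without stage II replicate 3 the difference was log2 -1.16 (adjusted p = 0.0868), and the call also ended without any stage I array or stage II replicate 1 (with adjusted p up to 0.0894). Inha, the inhibin alpha chain, lay at 13.73, 13.52 and 13.43 in stage I and 12.92, 13.13 and 12.15 in stage II, against 13.33, 13.42 and 13.59 in controls, and fell 1.77-fold (log2 -0.82 ± 0.19 SE, adjusted p = 0.0175). It had log2 -0.53 without stage II replicate 3 and did not pass without stage I replicate 1 or 2 (with adjusted p up to 0.0517). Amhr2, the receptor of anti-Müllerian hormone, fell 1.73-fold (log2 -0.79 ± 0.18 SE, adjusted p = 0.0144), which no longer passed with stage II replicate 3 left out (adjusted p = 0.0567). The granulosa count was 1 without stage I replicate 1 or stage II replicate 3, 2 without stage I replicate 2 and 3 without stage I replicate 3, while the median stayed between -0.94 and -0.53.

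The theca and interstitial list of 9 markers held 4 falls and 0 rises, with a median of -0.41, and the 4 became 2 without stage I replicate 2 or 3. Cyp17a1, the enzyme that turns progestins into androgens in theca cells, lay at 12.72, 11.82 and 12.22 in stage I and 10.19, 10.26 and 6.06 in stage II, against 10.79, 11.54 and 12.18 in controls. It had the largest fall of all genes that passed, 10.7-fold (log2 -3.42 ± 0.85 SE, adjusted p = 0.0231), and stage II replicate 3 set much of its size. Without that array the fall was log2 -2.03 (adjusted p = 0.00678), and the call ended without any 1 of the 3 stage I arrays (with adjusted p up to 0.0673). Nr5a1, which encodes SF-1, the main activator of steroid synthesis genes, lay at 10.44, 9.97 and 10.00 in stage I and 9.22, 9.53 and 9.22 in stage II, against 9.68, 9.91 and 10.15 in controls, and fell 1.76-fold (log2 -0.81 ± 0.14 SE, adjusted p = 0.00453), or by log2 -0.53 with the mean of its probe sets. Hhip, which binds hedgehog ligands and is their target, lay at 5.93, 5.82 and 5.87 in stage I and 5.23, 5.27 and 5.40 in stage II, against 5.69, 5.96 and 6.11 in controls, and fell 1.49-fold (log2 -0.58 ± 0.11 SE, adjusted p = 0.00811). Of 9 hedgehog pathway genes, through which granulosa cells signal to theca, 3 fell and 0 rose, with a median of -0.28, and 1 was called without stage I replicate 1 or 3 or stage II replicate 3.

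**Figure D3:**
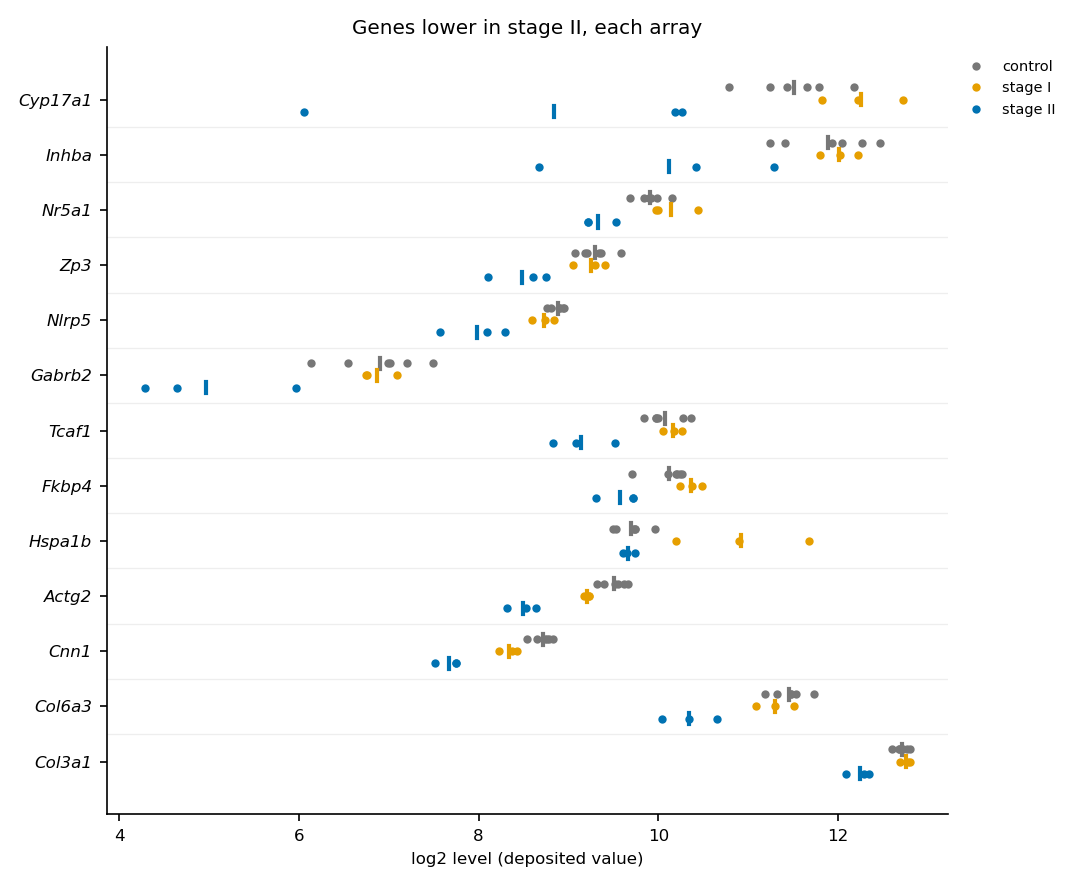
The log2 level of 13 genes that fell is shown on each array, drawn as for the rises. In Cyp17a1 stage II replicate 3 (6.06) lies far to the left of the other stage II arrays (10.19 and 10.26), while in Actg2, Cnn1 and Col3a1 the 3 stage II arrays lie close together.

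Genes of the contractile apparatus of smooth muscle were among the falls. Actg2, gamma smooth muscle actin, lay at 9.17, 9.22 and 9.23 in stage I and 8.63, 8.53 and 8.31 in stage II, against 9.32, 9.53 and 9.67 in controls, and fell 1.64-fold (log2 -0.72 ± 0.10 SE, adjusted p = 0.00129). Cnn1, calponin, lay at 8.37, 8.23 and 8.43 in stage I and 7.75, 7.75 and 7.51 in stage II, against 8.54, 8.75 and 8.82 in controls, and fell 1.60-fold (log2 -0.67 ± 0.09 SE, adjusted p = 0.00104). Both stepped down from controls to stage I to stage II without overlap. Tagln, transgelin, fell 1.48-fold (log2 -0.56 ± 0.11 SE, adjusted p = 0.00783), and Acta2, alpha smooth muscle actin, fell 1.39-fold (log2 -0.47 ± 0.10 SE, adjusted p = 0.00986). Of 11 smooth muscle and pericyte markers 4 fell and 1 rose, with a median of -0.25. The 4 falls became 4 or 5 with each array left out, and the rise ended without stage I replicate 1 or stage II replicate 3 and was joined by another without control replicate 1.

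Other genes that fell did not share 1 list. Of 134 ion channel genes 6 rose and 2 fell, and Gabrb2 had the largest fall of them. The share called in that list, 6%, is below the 12.5% of all genes. Gabrb2, a GABA receptor subunit, lay at 7.10, 6.76 and 6.75 in stage I and 4.65, 5.96 and 4.29 in stage II, against 6.14, 7.01 and 7.49 in controls, and fell 3.73-fold (log2 -1.90 ± 0.40 SE, adjusted p = 0.0108), or by log2 -1.07 with the mean of its probe sets. Adipoq, the adipocyte hormone adiponectin, lay at 7.89, 8.16 and 9.31 in stage I and 4.85, 6.17 and 4.88 in stage II, against 6.29, 8.77 and 9.88 in controls, and fell 8.91-fold (log2 -3.16 ± 0.76 SE, adjusted p = 0.0205), in a gene whose controls also varied widely. That call ended without stage I replicate 2 or 3 or stage II replicate 1 or 3 (with adjusted p up to 0.0834). Of the 7 adipocyte markers 2 fell and 0 rose, with a median of 0.03. At an unadjusted p under 0.05 limma gave 1 of them as higher. Tcaf1, a regulator of the cold-sensing channel TRPM8, lay at 10.27, 10.18 and 10.05 in stage I and 9.08, 9.52 and 8.83 in stage II, against 9.85, 9.98 and 10.36 in controls, and fell 2.03-fold (log2 -1.02 ± 0.17 SE, adjusted p = 0.00314). Ksr1, a scaffold of the Ras to ERK cascade, fell 2.01-fold (log2 -1.01 ± 0.19 SE, adjusted p = 0.00764), and Rian, an imprinted noncoding RNA, fell 1.91-fold (log2 -0.93 ± 0.18 SE, adjusted p = 0.00832). Sftpc, a surfactant protein of lung, lay at 7.75, 7.15 and 7.39 in stage I and 6.33, 6.64 and 5.69 in stage II, against 6.53, 6.77 and 6.94 in controls, and fell 2.32-fold (log2 -1.21 ± 0.21 SE, adjusted p = 0.00435). Arg1, arginase, lay at 5.32, 4.91 and 4.49 in stage I and 3.83, 3.91 and 3.91 in stage II, against 4.43, 4.72 and 5.14 in controls, and fell 2.03-fold (log2 -1.02 ± 0.21 SE, adjusted p = 0.0101), at levels in the lower part of the table's range.

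Of 35 genes of the BMP and TGF-beta pathway 6 fell and 0 rose, with a median of -0.18. The 6 became 2 without stage I replicate 1 or 2 or stage II replicate 3, and the highest count with a single array left out was 9. Acvr1, a type I receptor of the BMP branch, lay at 9.12, 8.90 and 8.57 in stage I and 8.13, 8.35 and 8.02 in stage II, against 8.54, 8.61 and 8.82 in controls, and fell 1.62-fold (log2 -0.70 ± 0.13 SE, adjusted p = 0.00705), or by log2 -0.31 with the mean of its probe sets. Of 51 developmental homeobox factors 6 fell and 0 rose, with a median of -0.01 and 3 called without stage II replicate 1 or 3. Meis2, a cofactor of Hox proteins, fell 1.48-fold (log2 -0.56 ± 0.11 SE, adjusted p = 0.00638), Hoxc6 fell 1.35-fold (log2 -0.44 ± 0.09 SE, adjusted p = 0.00932), and Hoxd8 fell 1.30-fold (log2 -0.38 ± 0.07 SE, adjusted p = 0.00508).

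Markers of blood cells and immune cells gave few calls. Among 10 macrophage markers Cd14, described above, was the 1 called. The median of the list was 0.08, and ran from -0.132 to 0.271 over the fits without single arrays, so it had no settled sign. Limma called 0 of 10 T and NK cell markers, 0 of 8 B and plasma cell markers and 0 of 11 neutrophil and mast cell markers. At an unadjusted p under 0.05 these 3 lists held 1, 0 and 1 higher and 0, 0 and 1 lower. Their medians were -0.02, -0.07 and 0.03. Of 8 markers of oviduct and uterus epithelium 0 were called and 0 had an unadjusted p under 0.05. Limma also called 0 of 11 antigen presentation genes, with 1 higher and 0 lower at an unadjusted p under 0.05. Of 16 interferon response genes 2 were called higher and 0 lower, which became 0 without stage I replicate 2 or 3 or stage II replicate 1 or 3 and 4 without stage I replicate 1 or stage II replicate 2. Of 12 endothelial markers 2 rose and 0 fell, with a median of 0.34 and 11 of 12 above 0. The firmer of these was Flt1, a receptor for VEGF, which lay at 7.32, 7.23 and 7.17 in stage I and 8.36, 7.93 and 8.29 in stage II, against 7.07, 7.27 and 7.79 in controls, and rose 1.94-fold (log2 0.96 ± 0.20 SE, adjusted p = 0.0103). The other call ended without any stage I array, stage II replicate 1 or 3.

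Some of the lists above had 0 calls in 1 direction. At an unadjusted p under 0.05 limma then gave 0 members in that direction for the oocyte, granulosa, theca, hedgehog, replication, mitosis, p53, macrophage, cholesterol, endothelial and ribosomal lists. It gave 1 for the innate defence, EGF, interferon and S100 and annexin lists, and 2 for the surface epithelium, BMP and TGF-beta, homeobox and glycolysis and hypoxia lists.

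For other lists too the share called was near the 12.5% of all genes, with 15.7% of the aldehyde, alcohol and conjugation enzymes, 11.8% of the homeobox factors, 11.1% of the mitosis genes, 12.5% of the interferon response genes and 13.3% of the heat shock genes. The median changed sign when single arrays were left out for the surface epithelium, T and NK cell, B and plasma cell, neutrophil and mast cell, adipocyte, FGF, chemokine and interleukin, solute carrier and homeobox lists. These medians lay between -0.135 (B and plasma cells) and 0.124 (adipocytes). Other medians kept their sign and moved by over 1.5 times. They lay between -0.214 and -0.087 for BMP and TGF-beta genes, -0.354 and -0.168 for hedgehog genes, 0.095 and 0.208 for innate defence genes, 0.105 and 0.265 for the Bcl2 family, 0.195 and 0.347 for p53 genes, 0.091 and 0.181 for plasma proteins, 0.175 and 0.319 for progesterone receptor targets and -0.071 and -0.042 for collagens. For the EGF, glycolysis and hypoxia, respiratory chain, ribosomal, mucin, and aldehyde, alcohol and conjugation lists the medians of these fits lay between -0.068 (ribosomal) and 0.125 (glycolysis and hypoxia).

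**Figure D4:**
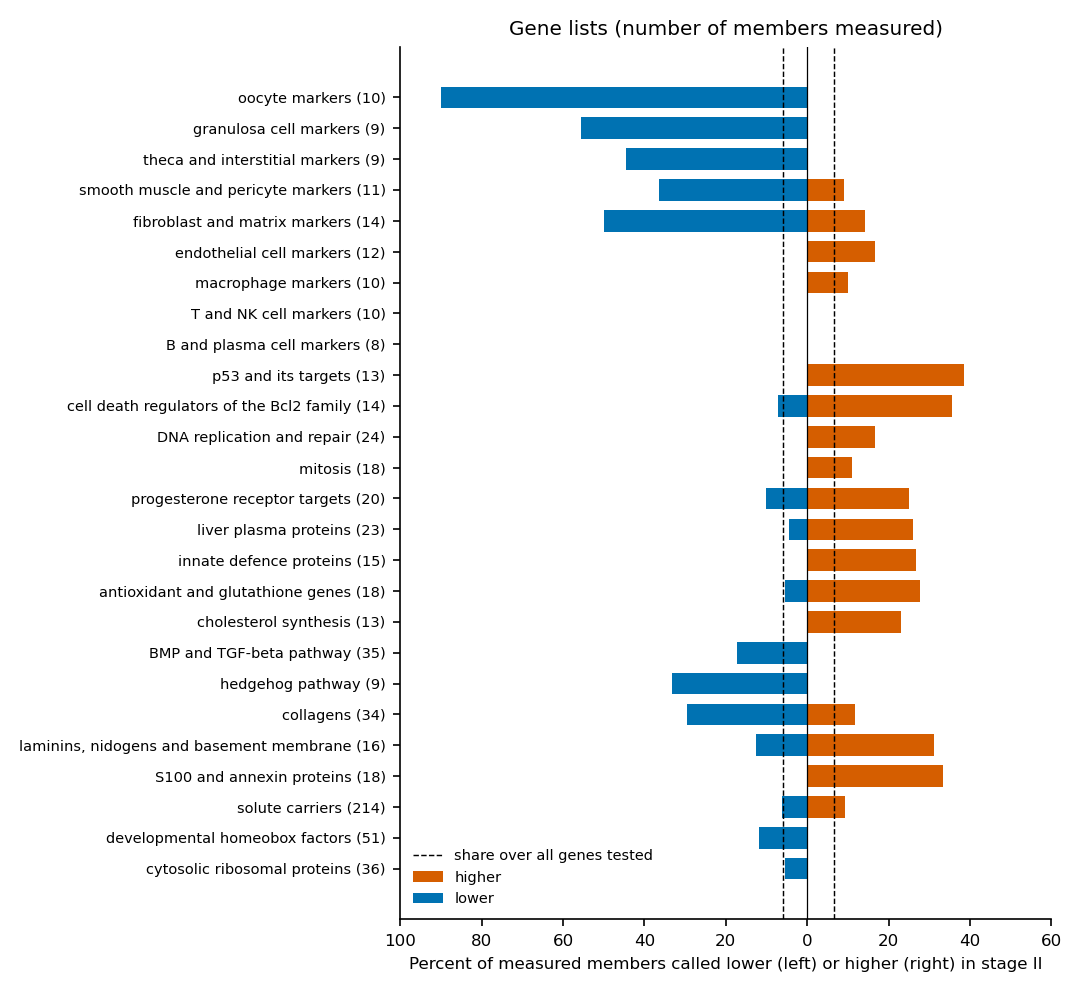
Bars give the percent of the measured members of 26 gene lists that limma called lower (left, blue) or higher (right, orange) in stage II, with the number measured in parentheses. Dashed lines mark the shares over all genes tested, 5.97% lower and 6.54% higher. Oocyte markers reach 90% on the left, p53 targets 38.5% on the right, and the T and NK and B cell lists are empty.

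Housekeeping groups stayed near 0 in the median. Of 36 cytosolic ribosomal proteins 2 fell and 0 rose, with a median of -0.06, and of 71 respiratory chain genes 2 rose and 2 fell, with a median of 0.04. The ribosomal count lay between 0 and 3 when single arrays were left out, and was 0 without any stage I array, stage II replicate 1 or 3. Sdhb, a subunit of succinate dehydrogenase, lay at 11.50, 11.51 and 11.49 in stage I and 11.11, 11.17 and 10.95 in stage II, against 11.48, 11.57 and 11.73 in controls, and fell 1.34-fold (log2 -0.42 ± 0.08 SE, adjusted p = 0.00816). The other 3 respiratory calls each ended without at least 3 of the tumor arrays. Among 13 cholesterol synthesis genes 3 were called higher and 0 lower, with a median of 0.58 and 11 of 13 above 0. The 3 became 0 without stage I replicate 1 or stage II replicate 1 or 3 and 1 without stage I replicate 2, stage I replicate 3 or control replicate 5. As a mean over the list relative to the controls, the stage I arrays lay at -0.76, -0.38 and -0.38 and the stage II arrays at 0.63, -0.34 and -0.01, while controls ran from -0.40 to 0.54. Stage II replicates 2 and 3 were therefore inside the control range.

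The genes that fell were unevenly spread over the chromosomes, a pattern noticed after the values were seen. Of 626 genes measured on chromosome 4, 101 fell (16.1%) and 19 rose (3.04%), with a median of -0.111. On the other 19 chromosomes 3.8% to 9.09% of genes fell, and the medians lay between -0.059 and 0.025. Chromosome 4 held 15.4% of all genes that fell. Measured against the control mean, the median chromosome 4 gene lay at -0.037, -0.004 and -0.007 on the stage I arrays and at -0.112, -0.132 and -0.175 on the stage II arrays. The controls lay between -0.005 and 0.021, so all 3 stage II arrays were below every other array. Chromosome 14 lay at -0.149 on stage II replicate 3, against -0.053 and -0.044 on the other 2 stage II arrays. There too all 3 stage II arrays were below every other array, with the lowest control at -0.01 and the lowest stage I array at -0.02. Over all genes tested the stage II arrays lay at -0.028, -0.036 and 0.016.

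**Figure D5:**
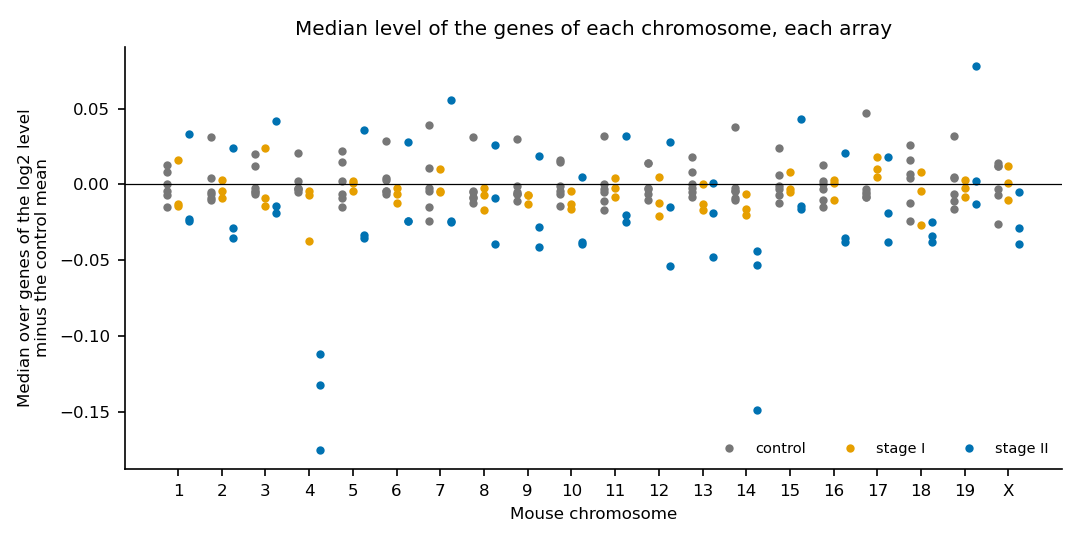
For each of 20 mouse chromosomes the median over its genes of the log2 level minus the control mean is plotted, with 1 point per array. The 3 stage II arrays stand at -0.112, -0.132 and -0.175 on chromosome 4, apart from the controls and stage I. On chromosome 14 they stand at -0.053, -0.044 and -0.149, also below all other arrays.

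The genes with the largest rises often lay above the control range in stage I too. Of the 30 genes with the largest rises named by the rule, 23 had all 3 stage I arrays above all 6 controls and 7 overlapped them. Of all 716 genes that rose, 15.6% lay above the controls in stage I and 82.1% overlapped them. Over all genes 2.2% lay above and 96.3% overlapped. Fga, Fgb, Ly6d and Defb8 were among the 23. Among the other 7 were Meltf, a surface transferrin relative, which lay at 5.01, 4.83 and 5.10 in stage I and 7.75, 6.97 and 8.63 in stage II, against 4.75, 4.93 and 5.28 in controls, and rose 6.95-fold (log2 2.80 ± 0.30 SE, adjusted p = 0.000216). Of the 30 genes with the largest falls, 26 overlapped the controls in stage I, 4 lay above them and 0 lay below. These positions share the stage I arrays with the stage comparison and are given as a description.

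Smaller sets of arrays ended some of the calls given above. With the 6 tumor arrays alone limma called 393 genes (311 higher and 82 lower), in a fit with 4 residual degrees of freedom. Among the rises named above, Apoh, Bak1, Bcl2l11, Ccnd1, Ccne1, Defb8, Fn1, Gsta3, Lamc1, Mdm2, Mmp2, Nek2, Nusap1, Pmaip1, Tgfa, Tk1, Tspan8 and Ugt2b34 then no longer passed. Among the falls the same held for Acta2, Acvr1, Amhr2, Bok, Cyp17a1, Gabrb2, Hoxc6, Hspa1b, Inha, Inhba, Nlrp5, Plod2, Sftpc, Tagln and Zp3. With stage II replicate 3 and stage I replicate 1 both left out, Pgr, Bak1, Bcl2l11, Fkbp5, Flt1, Nusap1, Acvr1, Adipoq, Amhr2, Arg1, Bok, Gabrb2, Inhba, Ksr1, Sdhb and Zp3 did not pass. Cyp17a1 then fell by log2 -1.80 and Sftpc by log2 -0.79. All of these genes kept their direction in both fits.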

How the data were processed

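Total RNA of 12 mouse ovaries was measured on arrays, with 1 biotin-labelled channel each, per the labels. The authors deposited log2 values per probe set. Their scale was read from the values, which run from 2.69 to 14.4 with array medians between 7.09 and 7.15. The summary and normalization methods were not given in the sources used here, and such values cannot show a change in total RNA per cell. Background was not measured, so folds of genes near the lowest values may differ from ratios of transcripts. The number of arrays limits the precision.

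The table held 16376 probe sets. The platform annotation gave 14674 of them 1 symbol, 427 several and 1275 none, and 14632 matched RefSeq (GRCm38.p6) by Entrez identifier. For the 2854 genes with more than 1 probe set the brightest on average was used, leaving 10949 genes. Other genes were not analysed here.

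limma 3.58.1 (lmFit and eBayes, R 4.3.3) fitted one mean per group over the 12 arrays, with 9 residual and 3.13 prior degrees of freedom. P-values of stage II minus stage I were Benjamini-Hochberg adjusted across all genes, and "called", "rose" and "fell" mean an adjusted p under 0.05. P-values set the difference between the stages against the spread between arrays within the groups, estimated over all 12 arrays. Members and the 70 gene lists were chosen with earlier results of these data known. Genes named are Pgr, the 30 largest rises and 30 largest falls among called genes whose stages do not overlap (predicted genes and clones left out), and up to 6 called members per list, or 2 uncalled where none was called. The text names part of them, and some calls outside the text also depended on single arrays. Lists are described by counts and medians, with no test. A gene may be in several lists, so their counts are not separate. Pmaip1 is in the p53 and Bcl2 lists, and Inhba is in the granulosa and the BMP and TGF-beta lists. Alternatives were quantile normalization, centring, a filter on the dimmest 25 percent, other choices of probe set, the 6 tumor arrays alone, array weights, another variance prior, a replicate block, a 2-fold floor and leaving arrays out. The fit was tested on simulated data with known changes before use.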

Additional observations from a re-analysis of the deposited data

Results flagged for a closer look

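Of 255 named genes, 12 had 1 control array that stood apart from the other 5 by Dixon's criterion at 95%. Chance alone picks about 1 in 20 groups in this way, and 12 of 255 is close to that share. Genes share the arrays, so this count does not settle whether the flags arose by chance. The criterion looks for 1 array at a time and can miss arrays that stand apart together. On the axis of variation after the main one, control replicates 1 and 4 lay at 17.4 and 19.4. The other controls lay between -7.4 and -0.1 there. None of the flagged arrays belongs to a tumor stage, and groups of 3 arrays were not examined.

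Control replicate 4 stood apart in Cldn11 (log2 5.58), Robo4 (7.53), Camp (5.07), Ifi35 (8.80) and Anxa4 (10.21). Control replicate 1 stood apart in Adh1 (11.72), Fkbp4 (9.71), Rpl11 (13.27) and Fabp5 (11.20). Control replicate 2 stood apart in Gzmb (4.76) and Lig1 (9.30), and control replicate 5 in Wfdc2 (6.96). The controls enter the stage comparison through the spread that all groups share.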

How the results depend on the processing

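In every alternative that gives 1 value per gene, each called gene that was tested kept its direction. With every probe set tested separately, a dimmer probe set of Acvr1 (log2 0.077, against -0.70) and of Fgf13 (0.002, against -0.47) lay on the other side of 0. Normalization and filters changed the number of called genes by less than 1.5 times, with 1620 (684 higher, 936 lower) after quantile normalization, 1507 with centred medians, 1516 without the dimmest 25 percent, 1292 with each gene's probe sets averaged, 1669 with every probe set tested and 1426 with the other variance prior. The choice of arrays moved it more. The 6 tumor arrays alone gave 393 (311 higher, 82 lower), a fit with 4 residual degrees of freedom. Array weights gave 2308 (1094 and 1214). A 2-fold floor left 206 (184 and 22). Leaving out each array in turn gave 605 to 1610, with 408 to 772 higher and 170 to 838 lower. With stage II replicate 3 and stage I replicate 1 both left out, a choice made after the data were seen, it was 711 (515 and 196).

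Of 239 named genes that were called, 129 were called in all 12 fits with 1 array left out. The 6 tumor arrays alone ended 130 of the calls. With the replicate number as a block 602 genes were called (435 higher, 167 lower), a block that rests on the numbers in the labels alone. Deviations of same-numbered stage I and stage II arrays correlated at 0.026, 0.199 and -0.132. Arrays of different numbers were not compared in this way, so these values do not settle whether the numbers pair the arrays.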

Other observations

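Other genes that rose belonged to several families. Steap1, a metal reductase of epithelial membranes, lay at 5.83, 4.49 and 4.62 in stage I and 7.41, 7.43 and 8.47 in stage II, against 3.67, 4.29 and 5.32 in controls. It rose 6.94-fold (log2 2.79 ± 0.44 SE, adjusted p = 0.00258). Mlph, melanophilin, which ties transport vesicles to myosin, lay at 4.64, 4.02 and 3.82 in stage I and 6.55, 6.38 and 7.41 in stage II, against 3.30, 3.50 and 3.69 in controls, and rose 6.12-fold (log2 2.61 ± 0.25 SE, adjusted p = 0.000129). Both genes were near the controls on stage I replicates 2 and 3. Nmb, the peptide neuromedin B, lay at 10.52, 8.32 and 8.52 in stage I and 11.45, 11.12 and 11.75 in stage II, against 6.79, 6.88 and 7.14 in controls, and rose 4.98-fold (log2 2.32 ± 0.43 SE, adjusted p = 0.00569), and its stage I arrays were already above all controls. Vwce, a secreted protein with von Willebrand factor C repeats, rose 5.58-fold (log2 2.48 ± 0.42 SE, adjusted p = 0.00398). Ankrd1, a target of YAP and of stretch in muscle, lay at 6.55, 6.03 and 5.03 in stage I and 8.29, 8.80 and 7.35 in stage II, against 3.91, 4.31 and 5.33 in controls, and rose 4.85-fold (log2 2.28 ± 0.45 SE, adjusted p = 0.0088). Asb12, a gene of a ubiquitin ligase adaptor family, lay at 4.20, 4.03 and 3.95 in stage I and 6.44, 5.57 and 8.50 in stage II, against 3.40, 3.85 and 4.05 in controls, and rose 6.85-fold (log2 2.78 ± 0.52 SE, adjusted p = 0.0062), with stage II replicate 3 far above the other 2.

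Serpina10, an inhibitor of clotting factor Xa, lay at 6.77, 5.63 and 5.83 in stage I and 8.21, 7.35 and 8.49 in stage II, against 5.42, 5.57 and 5.69 in controls, and rose 3.83-fold (log2 1.94 ± 0.29 SE, adjusted p = 0.00196). Serpinb9b, of the granzyme-inhibitor branch of the serpins, rose 3.77-fold (log2 1.91 ± 0.27 SE, adjusted p = 0.00133). Cstb, an inhibitor of cathepsins, lay at 12.44, 11.97 and 11.98 in stage I and 13.18, 13.11 and 13.30 in stage II, against 11.75, 11.84 and 11.88 in controls, and rose 2.10-fold (log2 1.07 ± 0.11 SE, adjusted p = 0.000156). In Cstb every stage II array exceeded every other array. Edem1, which helps remove misfolded glycoproteins from the endoplasmic reticulum, rose 1.92-fold (log2 0.94 ± 0.17 SE, adjusted p = 0.00508), 1 of 16 unfolded protein response genes to do so. Cyp39a1 and Cyp27a1, hydroxylases of cholesterol products, rose 2.29-fold (log2 1.20 ± 0.21 SE, adjusted p = 0.00434) and 2.04-fold (log2 1.03 ± 0.20 SE, adjusted p = 0.0071). Parm1, a membrane mucin listed among luteal markers, lay at 10.51, 9.65 and 9.57 in stage I and 11.85, 11.96 and 12.12 in stage II, against 8.59, 8.80 and 9.54 in controls, and rose 4.19-fold (log2 2.07 ± 0.27 SE, adjusted p = 0.000843), the 1 call among 5 luteal markers. Nmb, Ankrd1, Asb12 and Cyp27a1 did not pass in the 6 tumor arrays alone.

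Probe sets outside the comparison also differed. Of 427 probe sets with several symbols limma called 24 higher and 17 lower, and of 1275 with no symbol 52 higher and 46 lower.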
